A study of Homo sapiens with 4 samples.

Results

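The S100 genes encode small calcium-binding proteins of the EF-hand type. The genes described here are S100A4, S100A6, S100A8, S100A9, S100A10, S100A11, S100A12 and S100A13, which were chosen by gene symbol. Of these 8 genes, 7 had a row among the 18885 genes of the expression table, and S100A12 was not analysed. No gene listed had a mean under 0.50 TPM over the 4 libraries. The measurements come from RNA-seq of MV4-11, an established human AML cell line of myelomonocytic type, and the unit is TPM, which is read density per transcript length scaled to a common total. The control group (NC) had 2 libraries, for which the sample labels give no shRNA while the study's methods describe a control hairpin, sh-NC. The knockdown group (sh-ANP32B) had 2 libraries of cells carrying an shRNA against ANP32B, a histone chaperone, and its columns bear the mark S3. Cells with hairpins were obtained by lentiviral infection and puromycin, and no time after infection is given in the labels. If the NC cells carried no hairpin, the effects of infection and selection and those of the loss of ANP32B cannot be told apart. If S3 denotes the same hairpin in both libraries, effects particular to that hairpin cannot be told apart from the loss of ANP32B either. Nothing in the labels says that the libraries of a group came from separate cultures. The p-values rest on the spread between libraries, with variance shared across genes, and that spread may be technical.

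S100 proteins usually form dimers, and binding of calcium opens a surface through which they hold target proteins. S100A8 and S100A9 pair as calprotectin, an abundant protein of neutrophils and monocytes that binds zinc and manganese, supports the phagocyte oxidase and signals through TLR4 and AGER once released. S100A12 is their near neighbour in the genome and has like uses in granulocytes. S100A4 binds non-muscle myosin and S100A6 binds CACYBP, whereas S100A10 and S100A11 are partners of the annexins ANXA2 and ANXA1. S100A13 takes part in the release of FGF1 and IL1A. In the myeloid lineage, S100A8, S100A9 and S100A12 mark mature cells.

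All 8 genes lie on chromosome 1. On hg38, S100A9 (ENSG00000163220) runs from 153357854 to 153361023 on the plus strand. S100A8 (ENSG00000143546) runs from 153390032 to 153391073 on the minus strand, with S100A12 between them. S100A6 (153534599 to 153536244), S100A4 (153543613 to 153550136) and S100A13 (153618787 to 153631360) follow on the minus strand. S100A10 (151982915 to 151993859) and S100A11 (152032506 to 152047907) stand apart, since S100A11 ends 1.31 Mb before S100A9 starts. In the GENCODE v44 annotation the canonical transcript of each of the 8 genes has 3 exons, and their lengths run from 408 bases for S100A8 to 671 bases for S100A10.

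The stretch just before the start site was compared between the genes because it shows a feature that did not enter their choice. RefSeq promoter windows on GRCh38.p14 matched all 8 genes, and for each the window whose start site was the canonical one of GENCODE was taken. For 7 of them, the bases from 40 to 11 before the start site are given on the gene's own strand, 5′ to 3′. Capitals mark the TATA box letters TATAAA, except in S100A11, where they mark a match to the C/EBP letters TTGCNNA on the opposite strand.
S100A9 (chr1:153357814-153357843, plus strand): caggagctgccTATAAAtgccgagcctgca
S100A8 (chr1:153391084-153391113, minus strand): agcctaaccgcTATAAAaaggagctgcctc
S100A4 (chr1:153545817-153545846, minus strand): tggctggggTATAAAtaggtcagacctctg
S100A13 (chr1:153627516-153627545, minus strand): tccccgctgctTATAAAcctcagccctgag
S100A12 (chr1:153375632-153375661, minus strand): cacccaagggctaagatgaagcctgaactg
S100A6 (chr1:153536002-153536031, minus strand): caccgaccgctataaggccagtcggactgc
S100A11 (chr1:152037015-152037044, minus strand): gtaaggctTGGGCAAggctgggccgggaag

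The letters TATAAA began 29 bases before the start site in S100A8, S100A9 and S100A13, and 31 bases before it in S100A4. S100A12 held them at 8 bases before the start, and S100A6, S100A10 and S100A11 had no match in the 250 bases searched. Only the exact letters were searched, and the S100A6 stretch shown above holds TATAAG, which differs in the last letter. On either strand, 10.7% of the 35116 RefSeq promoter windows had TATAAA in these 250 bases. S100A9 is shown over its whole window, since it had the highest fold change of the 7 genes measured. Capitals mark TATAAA and, farther upstream, the PU.1 letters GAGGAA read on the opposite strand. PU.1 and C/EBP factors are regulators of myeloid genes.
S100A9 (chr1:153357604-153357853, plus strand): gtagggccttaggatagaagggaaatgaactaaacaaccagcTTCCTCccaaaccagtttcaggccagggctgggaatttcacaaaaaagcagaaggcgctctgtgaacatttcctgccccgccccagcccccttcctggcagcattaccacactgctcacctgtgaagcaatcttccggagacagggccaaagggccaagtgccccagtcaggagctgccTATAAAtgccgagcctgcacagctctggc

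GAGGAA was found in S100A8 and S100A9, 189 and 208 bases before the start, and in 23.6% of all windows. The C/EBP letters were found in S100A8, S100A11 and S100A12, and in 29% of all windows. The E-box CACGTG, which MYC and MAX bind, was found in none of the 8 windows and in 6.34% of all windows. Both strands were searched, and these matches are letters in the sequence and not measured binding.

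The knockdown was checked first. ANP32B (chromosome 9, 97983341 to 98015943) had 358 and 364 TPM in NC against 54.1 and 49.3 TPM after knockdown. Of the myeloid markers, CD33, CD4, FLT3 and 6 others had a row while MPO had none, and the erythroid markers HBB, HBA1 and GATA1 were without a row. The summed TPM of the 9 myeloid markers with a row ranged from 1797 to 1811 in NC and from 6954 to 7012 in sh-ANP32B. Most of that difference was lysozyme, LYZ, at 471 and 463 TPM in NC against 5308 and 5260 TPM in sh-ANP32B, and without it the other 8 summed to 1326 to 1347 TPM in NC and 1694 to 1704 TPM in sh-ANP32B. The markers did not all lie on the same side: CD4 had 381 and 383 TPM in NC against 619 and 618 TPM in sh-ANP32B, CEBPA 407 and 413 TPM against 438 and 434 TPM, and MEIS1 44.2 and 47.9 TPM against 30.2 and 29.6 TPM. FLT3 and HOXA9 were also slightly lower in both sh-ANP32B libraries than in either NC library. Of the 6 neutrophil granule genes, ELANE, PRTN3, AZU1 and CEACAM8 had a row, and their sum was 2512 to 2544 TPM in NC and 3884 to 3986 TPM in sh-ANP32B. Of the T cell markers only CD2 had a row, at 0.442 to 0.521 TPM in NC and 3.62 to 3.63 TPM in sh-ANP32B. Of the epithelial and fibroblast list only VIM, which myeloid cells also express, had a row, at 886 to 913 TPM in NC and 1242 to 1272 TPM in sh-ANP32B. The part of these markers in the S100 values was not tested. In RNA from whole cultures, more cells that express a gene and more RNA per cell cannot be told apart.

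Following ANP32B knockdown, most of the S100 transcripts measured rose. The 7 genes measured together held 1241 and 1254 TPM in NC against 2261 and 2347 TPM in sh-ANP32B, or 0.124% and 0.126% of all TPM against 0.227% and 0.235%. S100A4, S100A6 and S100A11 made up between 96.9% and 97.3% of that sum in every library. Differences were tested with limma on log2(TPM + 1) across 16937 genes that reached 1 TPM in 2 or more libraries, and fold changes below are on that scale unless TPM are named. A gene was called at a Benjamini-Hochberg adjusted p below 0.05 over all genes and a log2 fold change beyond 0.5. By this rule 6 of the 7 genes were called higher, against 17.9% of all genes tested, and 0 were called lower, against 10.1% of all genes. S100A8 and S100A9 stayed under 1 TPM in both NC libraries and so entered the test only through the knockdown libraries. The other 5 genes had at least 1 TPM in every library, and 4 (80%) of them were called higher and 0 lower. Of the 14550 genes that met the same requirement, 16.96% were called higher and 11.55% lower. The median log2 fold change was 0.70 for these 5 genes and 0.04 for the 14550. An adjusted p below 0.05 with a higher level, regardless of size, was found for 7 of 7 genes and for 26% of all genes. The values of the groups did not overlap for any of the 7 genes, with sh-ANP32B above NC throughout, which held for 42.5% of all genes. The median log2 fold change of the 7 genes was 0.94, and that of all genes tested was 0.08. The figures for all 7 genes include S100A8 and S100A9, so they are a description. The genes were also chosen with earlier results of these data known, so the figures for the 5 genes are a description too.

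**Figure D1:**
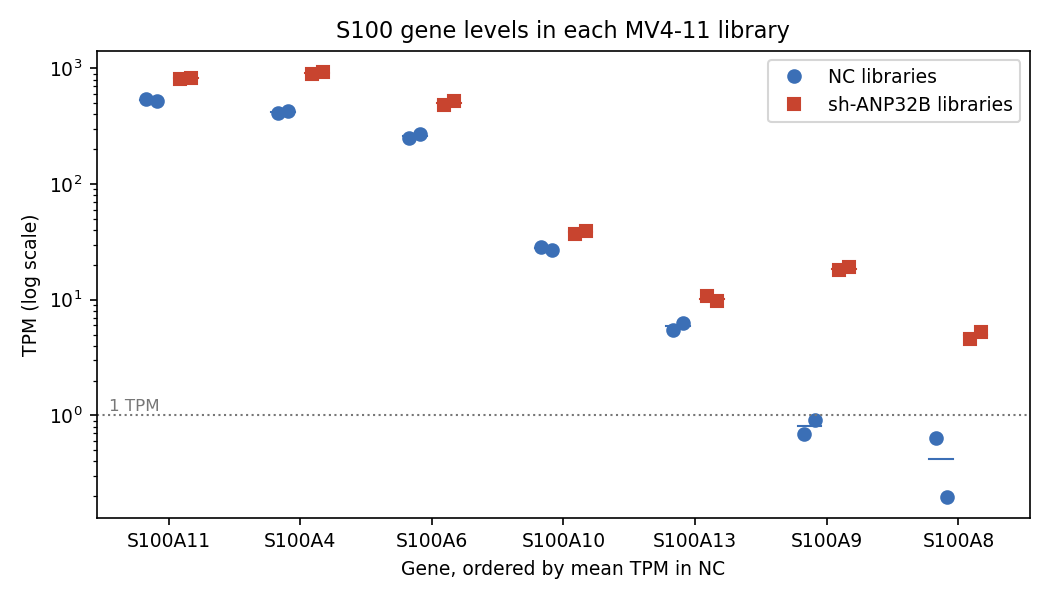
TPM of the 7 S100 genes (log scale) in each library, with circles for the 2 NC libraries, squares for the 2 sh-ANP32B libraries and short lines for the group means. Each pair of squares lies above the pair of circles, and S100A8 and S100A9 cross the dotted line at 1 TPM.

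The calprotectin genes had the highest fold changes. S100A9 was at 0.690 and 0.921 TPM in NC and at 17.9 and 19.2 TPM after knockdown. Both NC values are near the floor of the table, while both knockdown values are of middle level among the genes tested. The mean rose from 0.806 ± 0.164 TPM (SD, n = 2) to 18.6 ± 0.885 TPM (SD, n = 2), a ratio of 23.1. On the log2 scale it rose by 3.44 (SE, standard error, 0.152; limma, adjusted p = 1.17e-04), which placed S100A9 at percentile 99.9 of the changes of all genes. With the pseudocount lowered to 0.1 it was 4.38, since adding 1 TPM damps the change of a gene that starts this low. As S100A9 was tested only through its knockdown values, a rise was built in, and its p and percentile are a description.

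S100A8 had 0.641 and 0.199 TPM in NC and 4.62 and 5.28 TPM in sh-ANP32B. The NC libraries stood apart from each other, at levels where TPM keep no record of how many reads were seen. The mean rose from 0.420 ± 0.313 TPM (SD, n = 2) to 4.95 ± 0.472 TPM (SD, n = 2), a ratio of 11.8. On the log2 scale it rose by 2.08 (SE 0.236; limma, adjusted p = 0.00146). Leaving out single libraries gave 1.86 to 2.31, and with a pseudocount of 0.1 it was 3.42. S100A8 too was tested only through its knockdown values, so its p is likewise a description.

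Calprotectin is built from both proteins, so the ratio of the 2 transcripts was taken in each library. S100A9 exceeded S100A8 by a ratio of 3.89 and 3.63 in the sh-ANP32B libraries. In NC the ratio was 1.08 and 4.64, a spread that surrounds both knockdown values. Together the pair rose from 0.107% and 0.0893% of the S100 sum in NC to 0.998% and 1.04% in sh-ANP32B, so they remained a small part of it. S100A8 and S100A9 reached percentiles 30.2 and 55.8 of the levels of all genes in the knockdown group, from 1.71 and 5.11 in NC.

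S100A4, which binds non-muscle myosin and is linked to cell movement, had 415 and 427 TPM in NC and 898 and 931 TPM in sh-ANP32B. It rose from rank 264 to rank 114 of the genes tested and became the most abundant of the 7. The log2 difference was 1.12 (SE 0.038; limma, adjusted p = 7.08e-05), with a ratio of means of 2.17. S100A4 had the smallest adjusted p of the 7 genes.

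S100A6, or calcyclin, which is known from growing cells, had 251 and 270 TPM in NC and 480 and 518 TPM in sh-ANP32B. The log2 difference was 0.94 (SE 0.056; limma, adjusted p = 2.29e-04). In the cluster S100A5 lies between S100A6 and S100A4. The 95% intervals of their log2 fold changes overlapped, from 1.02 to 1.21 for S100A4 and from 0.80 to 1.08 for S100A6. S100A4 stood at 1.65 and 1.58 times the level of S100A6 in NC and at 1.87 and 1.80 times in sh-ANP32B. Of the exonic bases of S100A6, 37 are shared with a gene on the opposite strand, ENSG00000238279, and the handling of strand is not given in the sources used here.

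S100A11, a partner of ANXA1 in membrane repair and traffic, was the most abundant of the 7 in NC, with 540 and 523 TPM. It had 813 and 824 TPM in sh-ANP32B, and differed by 0.62 on the log2 scale (SE 0.035; limma, adjusted p = 2.04e-04). S100A11 was 1.30 and 1.23 times the level of S100A4 in NC, and 0.905 and 0.886 times in sh-ANP32B, so the order of these genes was exchanged. The annotation names 8 pseudogenes of S100A11, among which its reads could have been split.

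S100A13, which serves the release of FGF1 and IL1A, was lowly expressed, with 5.52 and 6.28 TPM in NC and 10.7 and 9.69 TPM in sh-ANP32B. The log2 difference was 0.70 (SE 0.131; limma, adjusted p = 0.00864), and its 95% interval from 0.37 to 1.02 was wide. S100A13 shares 235 exonic bases with S100A1 on the opposite strand and 536 with ENSG00000271853 on the same strand, so its value is uncertain.

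S100A10, which forms a tetramer with ANXA2 and binds plasminogen at the cell surface, was the gene that was not called. It had 28.6 and 27.1 TPM in NC and 37.1 and 39.3 TPM in sh-ANP32B, and the groups did not overlap. The log2 fold change of 0.44 (95% interval 0.27 to 0.62, limma, adjusted p = 0.00439) passed the test but not the fold limit. It was lowest at 0.35, with median-of-ratios scaling of the libraries.

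**Figure D2:**
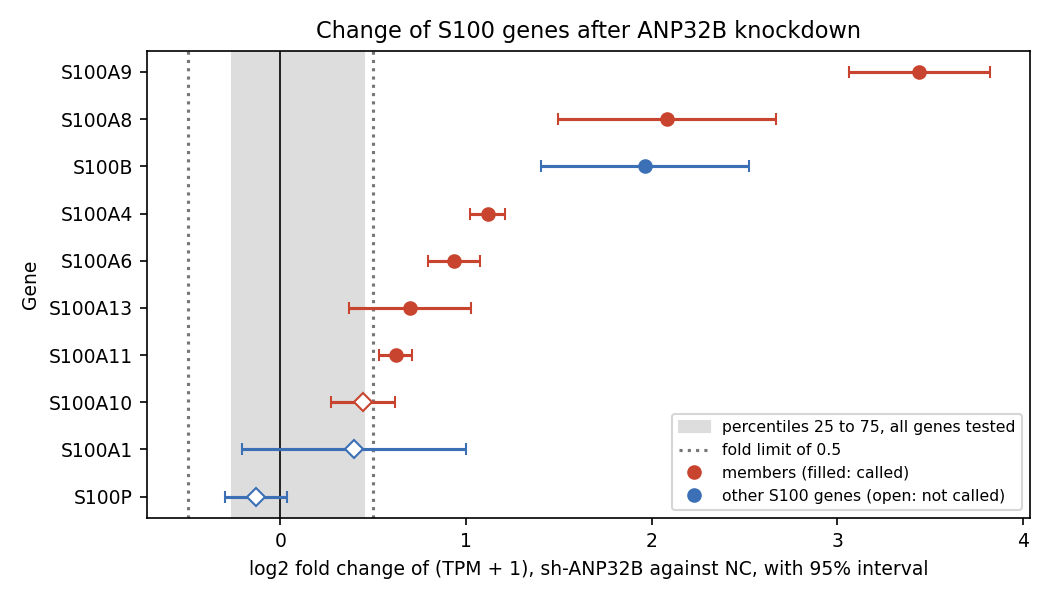
log2 fold change of TPM + 1 (sh-ANP32B against NC) with 95% intervals from limma, for the 7 S100 genes (red) and 3 other S100 genes (blue); filled points were called and open points were not, and the grey band spans percentiles 25 to 75 of all genes tested. S100A9 and S100A8 lie farthest to the right at 3.44 and 2.08, and S100A10, S100A1 and S100P are open.

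The order of the levels differed between the groups. In NC it ran from S100A11 through S100A4, S100A6, S100A10, S100A13 and S100A9 to S100A8. In sh-ANP32B it ran from S100A4 through S100A11, S100A6, S100A10, S100A9 and S100A13 to S100A8. In neither group did the libraries of neighbouring genes in the order overlap. On the scale of fold changes, the intervals of S100A10, S100A11 and S100A13 overlapped one another, and those of S100A8 and S100A9 overlapped neither each other nor those of the remaining 5 genes. S100A8 and S100A9 were tested only through their knockdown values, so a rise was built in and their intervals are a description. With a pseudocount of 0.1 their fold changes were 3.42 and 4.38, and the overlap of intervals was not examined at that setting.

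Of 12 further S100 genes, 4 had a row and 3 could be tested. S100B, a gene best known from glia, had 1.30 and 1.25 TPM in NC and 9.68 and 6.38 TPM in sh-ANP32B. It was called higher at 1.96 on the log2 scale (limma, adjusted p = 0.00150). S100P, which lies on chromosome 4 outside the cluster, was well expressed but was not called, with 61.5 and 61.6 TPM against 59.2 and 53.1 TPM and a 95% interval from -0.30 to 0.04. S100A1, known from heart muscle, had 1.38 and 1.87 TPM against 3.03 and 1.94 TPM (limma, adjusted p = 0.231). S100A3 had too few libraries at 1 TPM for the test, with 0.425 and 0.273 TPM in NC and 0.879 and 1.09 TPM in sh-ANP32B.

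Genes beyond one end of the cluster lay on both sides of 0. Within 200 kb on either side of the cluster that runs from S100A9 to S100A1, 6 genes outside the family were tested, all of them beyond the S100A13 and S100A1 end. SLC27A3, a fatty acid transport protein and acyl-CoA synthetase, had 2.02 and 2.09 TPM in NC and 6.78 and 6.77 TPM in sh-ANP32B, and was called higher. INTS3, a subunit of the Integrator complex, was called higher with 25.7 and 25.8 TPM against 45.4 and 43.8 TPM. ILF2, which binds double-stranded RNA, was called lower with 371 and 362 TPM against 254 and 248 TPM; its log2 difference of -0.54 was -0.47 after quantile normalization and then no longer called. CHTOP, SNAPIN and GATAD2B were not called, at log2 fold changes of -0.14, -0.03 and -0.47, although GATAD2B was called lower at -0.61 without sh-ANP32B replicate 2 and, with either scaling or a pseudocount of 0.1, at -0.51 to -0.61. Thus 2 of 6 neighbours (33.3%) were called higher and 1 (16.7%) lower, against 17.9% and 10.1% of all genes tested. S100A9 and S100A8, at one end of the cluster, had higher fold changes than any of these 6 genes. The 6 genes had at least 1 TPM in every library, whereas S100A8 and S100A9 were tested only through their knockdown values. A rise was thus built in for S100A8 and S100A9, and this ranking is a description. The limma interval of S100A8, from 1.49 to 2.67, also overlapped that of SLC27A3, from 0.97 to 1.73.

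**Figure D3:**
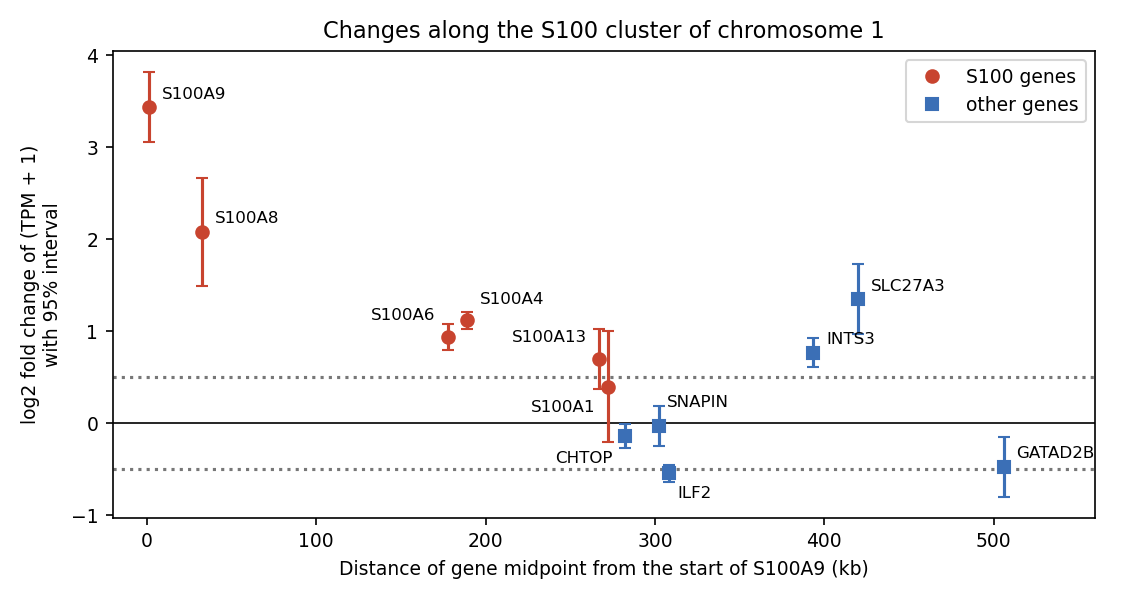
log2 fold change of TPM + 1 with 95% intervals from limma for the S100 genes (circles) and the other genes tested beside the cluster (squares), against the distance of each gene's midpoint from the start of S100A9 in kb. S100A9 and S100A8 are highest at the left, S100A6 and S100A4 lie near 0.94 and 1.12, and the genes outside the family lie on both sides of 0; dotted lines mark the fold limit of 0.5.

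The proteins that S100 proteins bind, and the receptors they signal through, were followed as a list of 30 genes, of which 25 were tested. Of these, 14 were called higher and 3 lower, with a median log2 fold change of 0.55, against 17.9% and 10.1% of all genes and a median of 0.08. CD36 and PLAT, a plasminogen activator, were below 1 TPM in both NC libraries and entered the test only through the sh-ANP32B libraries, so that these figures are a description. Among the 22 genes of the list with at least 1 TPM in every library, 13 (59.1%) were called higher and 3 (13.6%) lower at a median of 0.53, against 16.96% and 11.55% of the 14550 genes that met the same requirement. The list was chosen with earlier results of these data known, so the figures for the 22 genes are a description too. CD14, MCAM, IL1A, FGF1 and SYT1 had no row and were not analysed.

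Among the receptors of calprotectin, TLR4 had 24.5 and 26.1 TPM in NC and 36.9 and 36.1 TPM in sh-ANP32B, and its log2 difference of 0.51 was close to the limit. Without NC replicate 1 or sh-ANP32B replicate 1 it was 0.47 or 0.50 and not called, and it was not called at 0.42 or 0.49 with median-of-ratios scaling or quantile normalization. LY96, the subunit through which TLR4 senses its ligands, had 2.05 and 1.31 TPM against 4.40 and 5.26 TPM and was called higher. CD36, a scavenger receptor, had 0.556 and 0.279 TPM against 4.42 and 3.78 TPM, and like S100A8 it reached 1 TPM only after knockdown. CD69 was called higher at 0.55, but not without NC replicate 2 (0.47) or with median-of-ratios scaling (0.45). BSG, the most expressed receptor of the list, had 459 and 488 TPM against 470 and 484 TPM, and the groups overlapped. AGER was near the floor and was not called, with 0.673 and 1.90 TPM against 1.27 and 2.37 TPM.

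Calprotectin is known to assist the phagocyte NADPH oxidase, and genes of that enzyme stood on the list. CYBB, its catalytic subunit, had 3.33 and 3.62 TPM in NC and 19.3 and 21.3 TPM in sh-ANP32B, which was the highest log2 fold change of the list at 2.25. RAC2, the GTPase of the complex, was called higher at 1.04, with 195 and 195 TPM against 397 and 410 TPM. The groups did not overlap for either gene.

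The annexins moved in both directions. ANXA1, the partner of S100A11, was called higher at 1.24, with 15.1 and 12.9 TPM in NC and 33.1 and 35.9 TPM in sh-ANP32B. ANXA2, the partner of S100A10, was called lower at -0.60 (limma, adjusted p = 2.90e-04), with 197 and 191 TPM against 128 and 127 TPM. As S100A10 was somewhat higher, S100A10 was 0.145 and 0.142 times the level of ANXA2 in NC and 0.289 and 0.309 times in sh-ANP32B. ANXA5 was called higher at 0.67. ANXA6, at 0.502, lay on the limit and was not called without NC replicate 2 (0.4996) or sh-ANP32B replicate 1 (0.448), nor with median-of-ratios scaling (0.405). ANXA11 had 71.9 and 71.1 TPM against 91.5 and 100.2 TPM, a fold change inside the limit.

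AHNAK, a giant scaffold protein that the S100A10 and ANXA2 complex binds, rose from 44.2 and 49.3 TPM to 129 and 120 TPM. PLAUR, the urokinase receptor, and CTSB, a cathepsin that binds at the same complex, were called higher at 0.61 and 1.08. The NC libraries of CTSB were apart, with 302 and 212 TPM, although both lay below the 545 and 528 TPM of sh-ANP32B. ARRB1, an arrestin, was called higher at 0.63. MYH9, the myosin that S100A4 binds, had 254 and 262 TPM against 337 and 324 TPM, which was inside the fold limit at 0.35.

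CACYBP, the target of S100A6, was called lower at -0.50, with 138 and 134 TPM against 99.1 and 92.5 TPM. TUBA1B, a tubulin of the microtubules that calprotectin binds, was called lower at -0.52, with 3431 and 3083 TPM against 2363 and 2180 TPM. Without NC replicate 1 they were at -0.48 and -0.44, and without sh-ANP32B replicate 2 at -0.45 and -0.46, so neither was called, nor were they after quantile normalization, at -0.48 and -0.38. In these 3 cases ANXA2 was the only gene of the list called lower.

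Other proteins with EF-hands were set beside the S100 genes to see how calcium-binding genes of other families behaved. Of 38 such genes 36 were tested, of which 5 (13.9%) were called higher and 4 (11.1%) lower, and the median log2 fold change was 0.17. These shares were close to the 17.9% and 10.1% of all genes tested, whose median was 0.08. The 3 called with the highest values were CAPS at 1.39, GCA at 1.25 and NUCB1 at 0.87. GCA, or grancalcin, is a protein of neutrophils and had 6.11 and 5.64 TPM in NC and 15.7 and 15.1 TPM in sh-ANP32B. The 3 lowest were RCN1 at -1.13, NCS1 at -1.08 and CALU at -0.72. RCN1 and CALU are proteins of the secretory pathway, and RCN1 fell from 49.7 and 51.1 TPM to 23.8 and 21.2 TPM.

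The genes whose values over the 4 libraries followed S100A9 most closely, by Euclidean distance of log2(TPM + 1) less its mean, were MYO7B (distance 0.134), LYZ (0.174) and CXCL8 (0.176). LYZ, the lysozyme of monocytes and granulocytes, had 471 and 463 TPM in NC and 5308 and 5260 TPM in sh-ANP32B, 3.50 apart on the log2 scale. CXCL8, a chemokine that attracts neutrophils, had 3.45 and 3.33 TPM against 42.2 and 47.4 TPM. For S100A8 the closest were ENSG00000241489 (0.0612), BTBD19 (0.0954) and MEIS3 (0.101). With 4 libraries in 2 groups, this likeness is mostly that of the group difference. MYO7B, for example, had 0.145 and 0.352 TPM in NC and 11.6 and 14.2 TPM in sh-ANP32B.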

How the data were processed

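Per the submitters' processing notes, HISAT2 (2.0.5) and hg38 were used for alignment, and a single value for each gene and library was deposited. The unit was read from the values as TPM, since every library sums to nearly the same total (997271 to 998546) without a common step, and the tool, annotation and strand setting behind the deposited TPM are not given in the sources used here. TPM keep no read numbers, so depth and counting error cannot be given. The DESeq2 test of the study needs counts and was not used. Of 18885 identifiers, 17290 matched a symbol. limma (3.58.1, R 4.3.3; lmFit, eBayes with trend) was run on log2(TPM + 1) over 16937 genes, and checked on simulated data. With 2 against 2 libraries an exact two-sided permutation test cannot go below 0.333, so each p rests on variance shared across genes. The columns marked S3 were read as sh-ANP32B by the third hairpin of the study, with replicate numbers from the column names. Same-numbered libraries did not deviate together (correlation -0.0232), so no block was used. The genes and lists were chosen with earlier results of these data known. Genes named were the S100 genes tested, partners called and the 3 most expressed not called, the neighbours, the 3 highest and 3 lowest called EF-hand genes, and the 3 nearest to S100A8 and to S100A9. AGER, the marker genes and S100A3 were named outside that rule, and some items it covers are not reported here. Alternatives were the replicate block, pseudocount, filters, scalings, call limits and leaving out each library. Sequences came from RefSeq (GRCh38.p14). Python 3.11.15, pandas 2.3.3, numpy 2.4.6 and matplotlib 3.10.9 were used.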

Additional observations from a re-analysis of the deposited data

How the results depend on the processing

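The number of S100 genes called higher was 6 under the alternatives run except a fold limit of 1, under which it was 3 (S100A4, S100A8 and S100A9), and the requirement of 1 TPM in every library, under which S100A8 and S100A9 could not be tested and 4 of the remaining 5 were called. That fold limit also gave 8 partners called higher and 0 lower, 2 EF-hand genes higher and 2 lower, 1 neighbour higher and 0 lower, and 1136 genes higher and 273 lower overall. A pseudocount of 0.1 and median-of-ratios scaling each gave 2 neighbours called lower, and quantile normalization gave 1 partner called lower. With each library left out, partners called lower ranged from 1 to 3, neighbours called lower from 1 to 2, and S100 genes called higher stayed at 6. Scaling changed the whole table: the median of all genes was 0.08 as deposited, -0.0045 with median-of-ratios scaling and -0.04 with quantile normalization, and higher genes were 63.9%, 51.1% and 50.2% of the calls. Under the replicate block, the S100 count was again 6 and S100A9 and S100A11 had their highest adjusted p in limma, 0.00112 and 0.00156. The block changed no call named in the text. Values of genes near 0 turned sign: BSG was at -0.0869 with median-of-ratios scaling and from -0.0337 to 0.0543 with single libraries left out, and SNAPIN ranged from -0.140 to 0.0752 in the same way.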

Other observations

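AIF1, an EF-hand gene of monocytes and macrophages chosen here after its values were seen, had 0.283 TPM in NC replicate 1 and 24.4 TPM in NC replicate 2, against 15.6 and 12.6 TPM in sh-ANP32B. Its log2 fold change of 1.40 had a standard error of 1.30 and was not called, and the knockdown values lay between those of the NC libraries.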
